A study of Mus musculus with 148 samples.

Results

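Neut_Ptgs2 neutrophils are the wells that the authors' clustering labelled Neut_Ptgs2, a neutrophil population of mouse lung and mammary tumor named after prostaglandin-endoperoxide synthase 2 (COX-2). The label was carried by 1492 of 23425 annotated immune cells (6.37%) and by 1492 of 3972 neutrophils (37.6%). The other neutrophil labels were Neut_Lcn2 with 1604 cells, Neut_Ifit3 with 639, Neut_PMN-MDSC with 139 and Neut_Camp with 98. UMI counts were summed per mouse and tissue, and 29 sums of at least 10 Neut_Ptgs2 cells were analyzed, with 1404 of the 1492 cells. A Neut_Ptgs2 cell was found in 54 of 63 samples from 27 mice.

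All mice were C57BL/6 animals carrying photoactivatable GFP (PA-GFP), a reporter that is switched on by light in a chosen area of a tissue. Normal lungs (3 sums) are those the labels call Normal, which the study set against lungs of tumor-bearing mice. The other mice were females injected at 8 weeks of age into the mammary gland with EO771-tdTomato cells, a breast cancer line of this strain that carries a red reporter. Pre-MET lungs were taken before the primary tumor was removed (3 sums), and 1 Primary sum held 12 cells of such a tumor. In the remaining groups the tumor had been resected 3 weeks after injection. Relapse-free lungs then stayed without metastasis (5 sums). Distal normal tissue (6 sums) and MET (6 sums) were dissected from lungs with metastases, away from and at the red lesions. MET Core (3 sums, mice 17, 28 and 37) and MET Invasive margin (2 sums, mice 17 and 36) held photoactivated cells of a lesion's centre and rim. Mouse 17 gave 110 of the core cells and 122 of the margin cells, more than the other sums of those groups together. Its margin plates name their photoactivation target as NON-MET, where those of mouse 36 name ADJ, and the status label was followed. Its core plates were sorted for CD45 as well as photoactivation, and the other cores for photoactivation alone. The photoactivated gate was used for every core and margin cell and for some Relapse-free plates, and the CD45 gate for every Distal normal tissue and MET cell, so that gate and region cannot be told apart in those comparisons. The tumor cells were 1 cultured line and the lungs were digested before sorting. The plates of 1 mouse and tissue are 1 sample here.

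Neutrophils are short-lived phagocytes that leave the bone marrow with their granule proteins already made. After entry into tissue they switch on inducible genes, among them Il1b, chemokines that draw in further leukocytes, and Ptgs2. The enzyme encoded by Ptgs2 turns arachidonic acid into prostaglandin H2, from which prostaglandin E2 and other lipid mediators are made. Its gene is an early response gene in many cell types, and the C/EBP and NF-kB families of transcription factors are among its known regulators. S100a8 and S100a9 encode the 2 chains of calprotectin, the most abundant cytosolic protein of neutrophils.

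Promoter windows are shown for the gene that gives the population its name and for 2 chemokine genes on which the results below turn. Each is the 250 bases before the annotated start of the gene in RefSeq (GRCm38.p6), and the motifs searched on both strands were TATAAA (the TATA box), CGTCA (the core of the cAMP response element), TTGCNNAA (C/EBP), CACGTG (the E-box), an NF-kB motif and an interferon response motif. Capitals mark matches.
Ptgs2, chr1:150099781-150100030, plus strand: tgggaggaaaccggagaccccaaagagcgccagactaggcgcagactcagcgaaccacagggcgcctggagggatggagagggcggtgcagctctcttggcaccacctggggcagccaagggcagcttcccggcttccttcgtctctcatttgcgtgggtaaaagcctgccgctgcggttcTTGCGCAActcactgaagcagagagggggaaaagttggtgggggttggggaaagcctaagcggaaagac
Cxcl10, chr5:92348890-92349139, minus strand: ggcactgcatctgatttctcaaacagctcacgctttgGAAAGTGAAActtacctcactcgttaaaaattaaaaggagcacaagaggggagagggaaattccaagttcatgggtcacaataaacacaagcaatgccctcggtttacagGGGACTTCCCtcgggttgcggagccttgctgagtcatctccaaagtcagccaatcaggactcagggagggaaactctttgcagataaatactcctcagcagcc
Ccl3, chr11:83649379-83649628, minus strand: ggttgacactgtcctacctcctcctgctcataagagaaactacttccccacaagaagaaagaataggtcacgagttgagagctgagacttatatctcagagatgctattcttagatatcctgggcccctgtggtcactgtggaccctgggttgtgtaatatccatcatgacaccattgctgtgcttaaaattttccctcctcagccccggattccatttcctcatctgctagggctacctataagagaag
The Ptgs2 window held TTGCGCAA, 69 bases before the start, a match that reads the same on both strands. The Cxcl10 window held the interferon response match GAAAGTGAAA 213 bases and the NF-kB match GGGACTTCCC 103 bases before the start. No match was found in the Ccl3 window, nor in that of Ifitm1, which was searched as well and is not shown. Among 32851 RefSeq promoter windows of this length, TTGCNNAA was present in 9.56%, the NF-kB motif in 0.98%, the interferon response motif in 2.98% and the other motifs in 6.02% to 17.8%. A match describes the letters only.

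The neutrophil markers of the label were present in most cells, and Ptgs2 itself in fewer of them. After each cell was thinned to 500 UMIs, 39.1% of Neut_Ptgs2 cells held a Ptgs2 UMI (95% Wilson interval 36.6 to 41.6). The share was 20.3% in Neut_Ifit3, 12.8% in Neut_Lcn2, 26.6% in Neut_PMN-MDSC and 4.08% in Neut_Camp. In T cells, which should lack the gene, it was 0.292%. Without thinning, 49.6% of Neut_Ptgs2 cells held a Ptgs2 UMI, at a median depth of 944.5 UMIs against 996.5 in T cells. S100a8 was found in 94.8% and S100a9 in 93.0% of thinned cells, against 21.8% and 9.80% of T cells, shares that free RNA from neutrophils can give. Csf3r, the receptor of the growth factor G-CSF, was found in 49.7% (T cells 0.321%) and Il1b in 98.1% (T cells 5.04%). Camp and Ngp, granule genes of immature neutrophils, were seen in 0.335% and 1.68% of cells. Intervals cover counting error only.

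Across the 29 sums, the most abundant transcript was S100a8 at 64229 ± 25817 CPM (mean ± SD, lowest 8209, highest 105960; CPM are the UMIs of a gene scaled to the same total in every sum). S100a9 followed among the protein-coding genes at 26268 ± 7815.5 CPM. Il1b, which encodes interleukin-1 beta, was at 18813 ± 3966 CPM and between 11313 and 27003 CPM in every sum. Immediate early and feedback genes were abundant as well, with Fos at 10653, Dusp1 at 9001 and Junb at 5011 CPM. Cxcl2, a neutrophil chemoattractant, averaged 4451 CPM and Nfkbia, the inhibitor of NF-kB, 3835 CPM. Primary granule genes, which neutrophils express only as precursors, were nearly absent. Of the 5 measured, none had a UMI in Normal, Pre-MET, Relapse-free, MET Core or Primary sums, and their summed level was at most 37.8 CPM in any other sum. A UMI marks 1 transcript molecule, so that these levels are not divided by length, and the sums held 5720 to 202584 UMIs each (median 31243).

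The level of Ptgs2 varied between sums of the same tissue. It was 4800, 3045 and 3453 CPM in the Normal lungs of mice 1, 2 and 3. The Pre-MET lungs of mice 8, 9 and 10 held 387, 2250 and 2403 CPM. The Normal values all lay above the Pre-MET values. In Relapse-free lungs Ptgs2 ranged from 1805 to 3213 CPM, with a median of 2269. Distal normal tissue spanned 524.5 to 2682 CPM (median 1701), and MET 1260 to 3361 CPM (median 1668). The 3 MET Core sums held 1525, 2889 and 1319 CPM, and the 2 margin sums 722 and 1439 CPM. The ranges of Relapse-free, Distal normal tissue, MET and MET Core overlapped. Ptgs2 was highest in the Primary sum, at 5496 CPM, and 3 smaller Primary sums of 5 to 7 cells, which were not used in the fit, held 1356 to 15350 CPM.

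**Figure D1:**
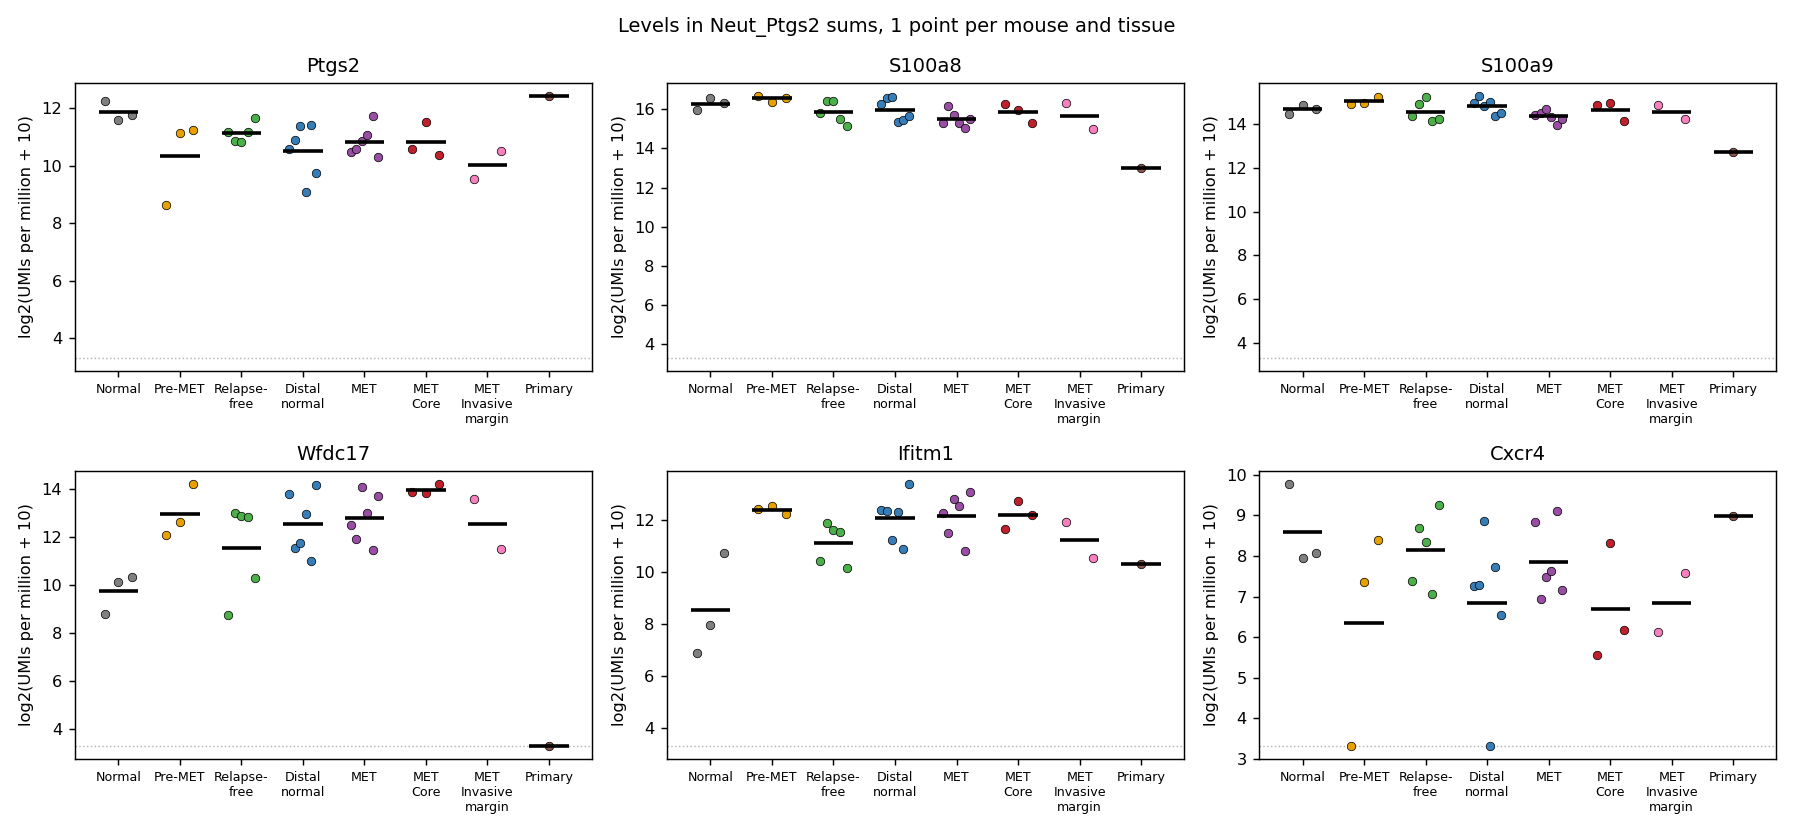
Level of 6 genes in Neut_Ptgs2 cells, on a log2(CPM + 10) axis, with 1 point per mouse and tissue and a bar at the group mean. Among the lung groups the Normal mean is the highest for Ptgs2 and the lowest for Wfdc17 and Ifitm1. The dotted line marks a level of 0.

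The genes whose levels followed that of Ptgs2 most closely over the 29 sums were Cxcr4 (Pearson r = 0.855), Rnf149 (0.670), Gm11478 (0.667), Fau (0.649) and Rbm39 (0.617), among 2560 genes with a mean of at least 50 CPM. Cxcr4 encodes the receptor that holds neutrophils in the bone marrow and returns aged neutrophils to it. These coefficients describe sums that share mice and sequencing batches, and the correlation of Ptgs2 with the depth of the sum was -0.0795. Cxcr4 was at 238 to 873 CPM in Normal lungs and at 0 in the Pre-MET sum of mouse 8, the one with the lowest Ptgs2.

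Set beside Neut_Lcn2 cells of the same samples, Neut_Ptgs2 cells had higher levels of Cxcr4, Il1b, Cxcl2 and some stress-induced genes and lower levels of S100a8, S100a9, Retnlg and the chemokine Ccl6, while against other labels the pattern differed. The labels were made by clustering these cells, so the ratios are a description without a test. Against Neut_Lcn2, in 18 samples with 10 cells of both, 9 of 1501 genes were higher and 6 lower in every sample. The higher genes were Gadd45b, a stress-induced gene (mean log2 ratio 3.17 ± 1.85), Cxcr4 (2.13 ± 1.15), Slc7a11, the cystine transporter (1.50), Ppp1r15a, which relieves the translational stress response (1.48), Gm20186 (1.25), Csrnp1 (1.00), Cxcl2 (0.89), Malat1 (0.71) and Il1b (0.60). The lower genes were Retnlg (-2.39 ± 0.95), Wfdc21 (-2.06 ± 1.06), Ccl6 (-1.10), S100a8 (-1.09 ± 0.25), Wfdc17 (-0.84) and S100a9 (-0.83). Ptgs2 was higher in 17 of 18 samples, at 1798 against 748 CPM (log2 ratio 1.38 ± 0.69). The median over all these genes was 0.26. By list, the median of 14 inflammatory cytokine and chemokine genes was 0.90, that of 20 immediate early and stress genes 0.65 and that of 13 secondary and tertiary granule genes -0.92.

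Against Neut_Ifit3, in 14 samples, 3 of 1583 genes were higher in every sample and 3 were lower. Slc7a11 (1.19 ± 0.52), Socs3, a feedback inhibitor of cytokine signaling (0.84 ± 0.70), and Malat1 (0.44) were higher. Wfdc17 (-1.02 ± 0.61), S100a8 (-0.69) and S100a9 (-0.50) were lower. Ptgs2 was higher in 13 of 14 samples, at 1665 against 866.5 CPM (1.15 ± 1.13). The interferon genes that name the other label did not set it apart, since Ifit3 differed by 0.03 ± 1.96 and was higher in 6 of 14 samples. The 29 type I interferon response genes had a median log2 ratio of 0.17, below the 0.26 of all genes. Against Neut_PMN-MDSC, in 5 samples, 284 of 2135 genes were higher and 48 lower in every sample. With 5 samples, chance gives the same direction in all of them more often than with 14 or 18. Retnlg (log2 ratio 4.42), S100a8 (2.72 ± 1.95) and Csf3r (2.89 ± 2.47) were higher in all 5 and Ccl3 was lower in all 5, at 1059 against 10217 CPM. Against Neut_Camp only 2 samples had both labels, and Camp was at 10.4 against 24166 CPM there.

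**Figure D2:**
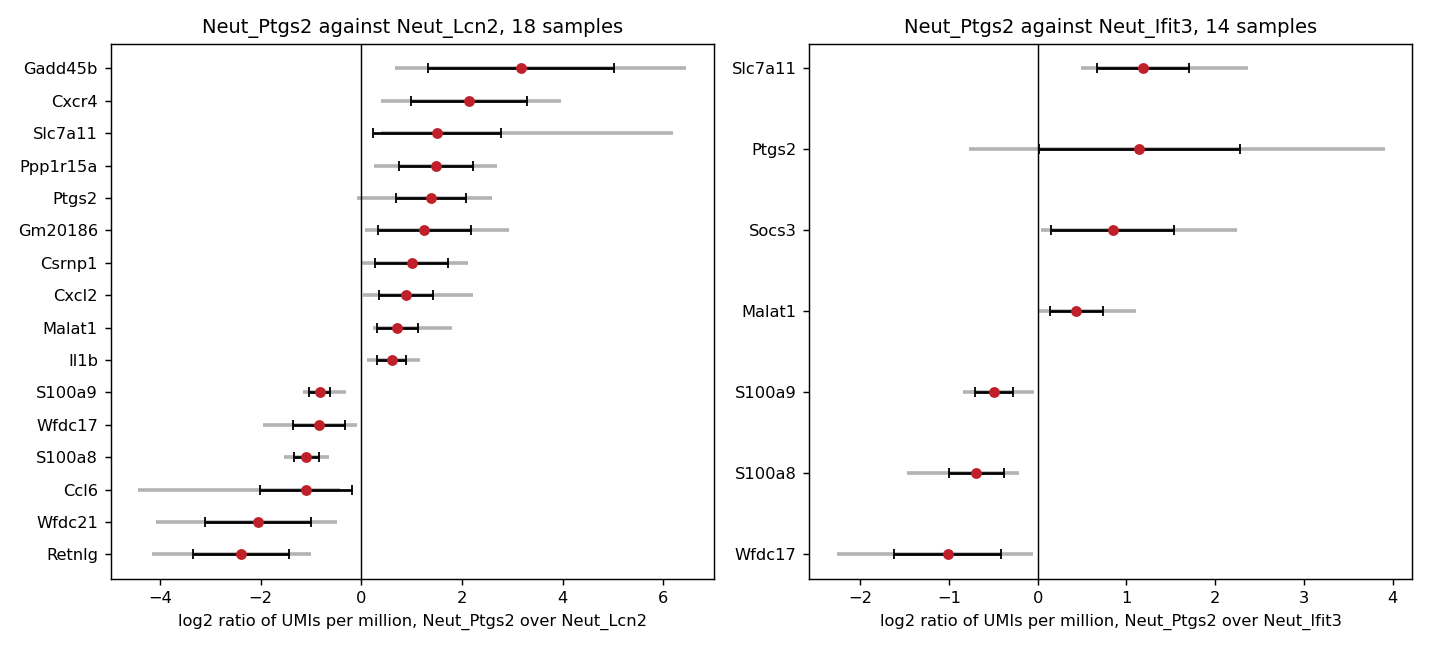
Mean log2 ratio of CPM + 10 between Neut_Ptgs2 and 2 other neutrophil labels within a sample (red point), with the SD over samples (black bar) and the full range (grey bar). Gadd45b and Cxcr4 lie farthest to the right against Neut_Lcn2 and Retnlg farthest to the left, while the range of Ptgs2 crosses 0 in both panels.

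Neut_Ptgs2 cells were most of the neutrophils in Normal lungs and a minority of them in Pre-MET lungs. The label made up 80.2% ± 6.95 (SD, n = 3) of neutrophils in Normal lungs and 33.0% ± 14.4 (n = 3) in Pre-MET lungs, and the highest Pre-MET value of 48.1% lay below the lowest Normal value of 72.2%. The two-sided exact permutation p was 0.1, the smallest that 3 against 3 samples allow. The Normal shares rest on 13 to 36 neutrophils each and the Pre-MET shares on 27 to 76. Relapse-free lungs stood between them at 56.0% ± 20.6 (n = 5, exact p = 0.0893 against Normal). The mean was 32.3% ± 23.3 in Distal normal tissue (n = 11), 40.6% ± 26.6 in MET (n = 9), 42.6% ± 16.2 in MET Core (n = 7), 46.1% ± 31.5 in MET Invasive margin (n = 5) and 73.0% ± 17.9 in Primary tumors (n = 4).

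None of the 6 comparisons of this share passed an adjusted p of 0.05, and the lowest Benjamini-Hochberg value was 0.12. Primary tumors exceeded Pre-MET lungs by 39.95 percentage points without overlap (unpaired exact permutation p = 0.0571, the smallest possible), and the Primary shares each rest on 6 to 13 neutrophils. Mice 8, 9 and 10 gave both tissues, and paired by mouse, a test added after the values had been seen, the difference was 33.5 points, positive in all 3 (exact sign-flip permutation p = 0.25, the smallest possible). Primary samples came from sequencing batches SB128 and SB132 and Pre-MET samples from SB99 and SB111. Batch and tissue therefore cannot be told apart, with or without pairing. In the 8 mice with both tissues, MET exceeded Distal normal tissue by 8.69 percentage points and in 6 of 8 mice (exact sign-flip permutation p = 0.0547). Where both tissues of a mouse came from 1 sequencing batch, the mean paired difference was 13.1 points in SB118 (3 mice, 0.299 to 26.2) and 4.95 points in SB128 (2 mice, -1.51 and 11.4). The 26.2 points of mouse 25 rest on 13 MET and 5 Distal normal tissue neutrophils. Distal normal tissue was 23.7 points below Relapse-free lungs (exact permutation p = 0.0701), and within sequencing batches the difference was -1.50 points in SB112 (1 against 1 sample) and -23.6 points in SB128 (2 against 1). The 2 Distal normal tissue samples of SB128 lay on both sides of the Relapse-free sample, at 15.0% and 89.0% against 75.7%. Core and margin of the same 4 mice differed by -2.60 points (exact p = 1), with 13.1 points in mouse 17 (SB112), 8.89 and 9.82 points in mice 26 and 28 (SB118) and -42.2 points in mouse 36 (SB128). All Normal plates came from 1 sequencing batch, SB102, which held no other group, so that batch and group cannot be told apart there.

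As a share of all immune cells, Neut_Ptgs2 cells were 3.09% ± 1.38 in Normal lungs and 3.56% ± 1.36 in Pre-MET lungs, which overlapped, and 6.92% ± 6.64 in Relapse-free lungs. It was 5.51% ± 6.13 in Distal normal tissue and 5.10% ± 4.80 in MET. The exact or permutation p of the 4 comparisons made was between 0.417 and 0.7, before adjustment. In Primary tumors it was 1.80% ± 0.344.

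**Figure D3:**
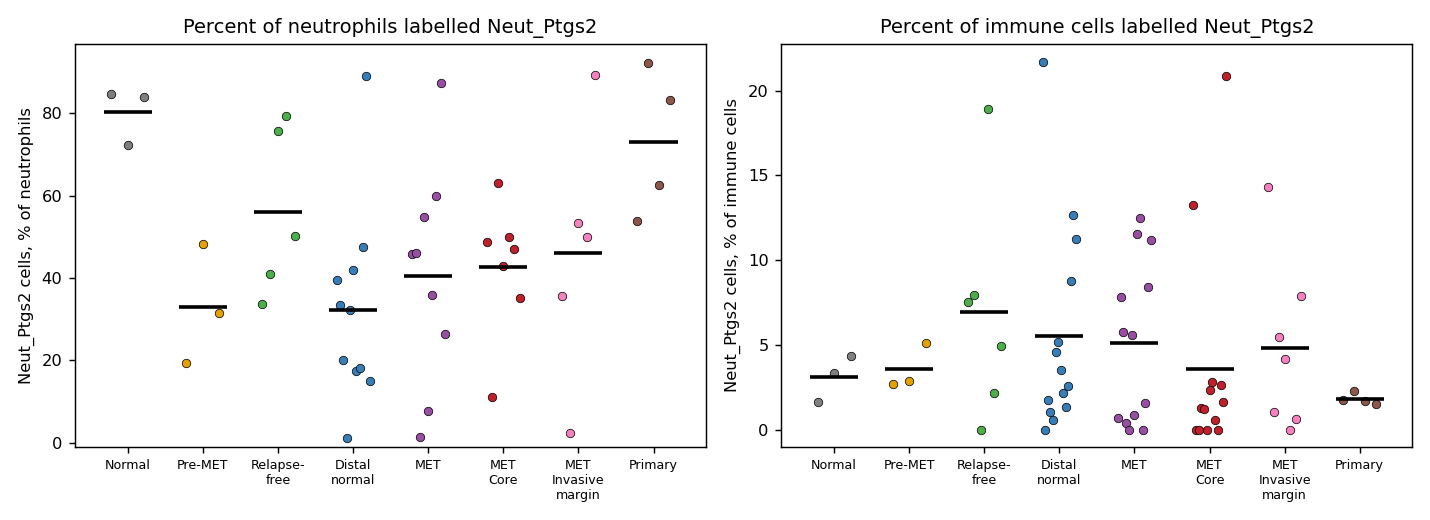
Neut_Ptgs2 cells as a percentage of neutrophils (left, samples with at least 5 neutrophils) and of immune cells (right), with 1 point per mouse and tissue and a bar at the group mean. The 3 Normal lungs lie above the 3 Pre-MET lungs on the left and overlap them on the right.

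Gene expression was compared in 1 fit over 28 sums of the 7 lung groups, with 1543 genes tested. In Pre-MET against Normal lungs, 2 genes rose and none fell (0.13% of genes tested, edgeR quasi-likelihood test, adjusted p below the threshold of 0.05). Wfdc17, a secreted protein of the whey acidic protein family, was at 436, 1094 and 1288 CPM in Normal lungs and at 4358, 6289 and 19110 CPM in Pre-MET lungs (log2 fold change 3.19, SE 0.68, adjusted p = 0.0142 by edgeR). Ifitm1, an interferon-inducible membrane protein, was at 109, 238 and 1701 CPM in Normal lungs and between 4805 and 5983 CPM in Pre-MET lungs (log2 fold change 2.78, SE 0.62, adjusted p = 0.0142 by edgeR). The groups did not overlap for either gene. All Normal sums came from sequencing batch SB102 and the Pre-MET sums from SB99 and SB111. Batch and group therefore cannot be told apart in this comparison. Some markers of other cells differed as well, in sums of 9157 to 21019 UMIs, where such levels rest on few UMIs. The summed level of 12 monocyte and macrophage markers, of which 3 or 4 had a UMI in any of these sums, was 285.5 to 327 CPM in Normal and 484 to 716 CPM in Pre-MET sums, and that of the 7 NK cell markers 238 to 327 and 0 to 194 CPM. The 6 MHC class II genes were at 0 to 1185 CPM in Normal and 51.1 to 109 CPM in Pre-MET sums. The 9 alveolar macrophage markers were at 190 to 764 and 102 to 437 CPM, and both of these lists overlapped. Neutrophils of other labels made up a larger share in Pre-MET lungs. In thinned cells, Wfdc17 was found in 89.9% of Neut_Lcn2, 98.1% of Neut_Ifit3 and 54.7% of Neut_Ptgs2 cells of all tissues, and Ifitm1 in 71.1%, 68.7% and 52.4%. Their part in the result was not tested. DESeq2 called neither of them, and no gene was called without the Normal lung of mouse 1 or of mouse 2. Wfdc17 also lost its call without the Normal lung of mouse 3 or the Pre-MET lung of mouse 10, and Ifitm1 without the Pre-MET lung of mouse 9.

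An unadjusted p below 0.05 was reached by 205 genes. The next higher genes were Gm7676, Csf2rb and Ifitm7, each with an adjusted p of 0.0612 by edgeR. Gm7676, a processed pseudogene, was at 109 to 773 CPM in Normal and 2403 to 3682 CPM in Pre-MET lungs. The lowest p among lower genes belonged to Irf9, Slc11a1, Celf2, Tnfrsf1b and Mkrn1, with adjusted p from 0.111 to 0.118 by edgeR. Irf9, a subunit of the interferon-stimulated transcription factor, had no UMI in any Pre-MET sum. Its Normal mean was 6.51 times the level that 3 UMIs over the Pre-MET group would give, a figure without the spread between mice. Ptgs2 had a log2 fold change of -1.16 (SE 0.54, unadjusted p = 0.0336 and adjusted p = 0.326 by edgeR). S100a8 and S100a9 differed by 0.16 and 0.29.

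Most type I interferon genes did not follow Ifitm1. Of 31 tested, 1 rose, 20 had a lower and 11 a higher estimate, and their median log2 fold change was -0.80 against -0.05 for all genes. Among 15 inflammatory cytokine and chemokine genes none was called, and their median was 0. The 4 tested genes of the prostaglandin and leukotriene pathway had a median of -0.64, with none called. Of the 18 genes in that list, 4 passed the filter on low counts.

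In Relapse-free against Normal lungs no gene was called (0% of 1543 by edgeR), 161 genes had an unadjusted p below 0.05, and DESeq2 also called 0. Wfdc17 was again the gene with the lowest p, at 422 to 8144 CPM in Relapse-free lungs (log2 fold change 2.54, SE 0.63, adjusted p = 0.12 by edgeR). Wfdc17 was called without the Relapse-free lung of mouse 6 (adjusted p = 0.0104 by edgeR) or 35 (adjusted p = 0.0490 by edgeR), and Ifitm1 without the Normal lung of mouse 3 (adjusted p = 0.00199 by edgeR). The other lowest p among higher genes were those of Gm27533, Ifitm6, Ifitm1 and Il4ra, the receptor of interleukins 4 and 13. Among lower genes they were those of Impa2, Sec24b, Pan2, Ggh and Usp18. This comparison and the previous one share the Normal sums. These came from a sequencing batch that held no other group, so that batch and group cannot be told apart here either. The median of all genes was shifted by 0.29 here, and S100a8 (-0.17) and S100a9 (0.16) were both below that median, with neither called. Of 31 type I interferon genes, 22 had a lower estimate.

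The MET and Distal normal tissue sums came from 6 mice each, and 3 mice (28, 36 and 37) gave both. No gene was called in MET against Distal normal tissue (0% of 1543 by edgeR; 49 at an unadjusted p below 0.05, 0 by DESeq2). Ccl3, a chemokine that attracts monocytes, T cells and neutrophils, came closest, at 29.7 to 860 CPM in MET (median 212) and 0 to 175 CPM in Distal normal tissue (median 61.8; log2 fold change 2.65, SE 0.64, adjusted p = 0.113 by edgeR). It was called with sequencing batch as a term (3.06, adjusted p = 0.0080 by edgeR) and without the MET sum of mouse 24 (2.88, adjusted p = 0.0208 by edgeR). In sums with most of their cells from batch SB128, Ccl3 was at 160 to 860 CPM in 4 MET sums. It was at 28.1 and 51.9 CPM in 2 Distal normal tissue sums. The MET sums of mice 31 and 32 also held SB124 cells. Those of mice 36 and 37 held SB128 cells alone, with 160 and 161 CPM. Neut_PMN-MDSC cells, which are rich in Ccl3, were 1.70% to 10.7% of the neutrophils in the 6 MET samples, 0% in the 6 Distal normal tissue samples and 0% to 5.70% in the 5 Relapse-free samples, and their part in the Ccl3 level was not tested. Cxcl3, Il1rn, mt-Atp6 and Jun were the next higher genes. Il1rn, the antagonist of the interleukin-1 receptor, was at 1020 to 1792 CPM in MET and 114 to 1229 CPM in Distal normal tissue. The lowest p among lower genes were those of Gm10837, Hcst, Tiprl, Rpl37a and Ikbkap.

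By list, 13 of 15 inflammatory cytokine and chemokine genes had a higher estimate in MET, with a median of 1.06 against 0.08 for all genes, and none was called. Markers of monocytes and macrophages moved with them: all 3 that passed the filter had a higher estimate (median 0.89, none called), and the 12 together were at 160 to 1587 CPM in MET (median 925) and 163 to 912 CPM in Distal normal tissue (median 527). Their part was not tested. All 9 tested genes of the tumor-associated and suppressive neutrophil list had a higher estimate, with a median of 0.50 and none called. The 31 type I interferon genes had a median of 0.12. In the 3 mice with both sums, a fit with the mouse as a block called 2 of 515 genes, Gm42418 and Fth1. Ptgs2 (0.27, SE 0.37), S100a8 (-0.37) and S100a9 (-0.32) did not pass the test.

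Distal normal tissue against Relapse-free lungs gave no call either (0% of 1543 by edgeR; 79 unadjusted, 0 by DESeq2). Igfbp6, Ifit3, Ifitm7, Fcgr4 and Ifitm2 had the lowest p among higher genes, with Ifit3 at 146 to 1465 CPM against 62.4 to 212 CPM (log2 fold change 1.79, SE 0.57, adjusted p = 0.467 by edgeR). Of the 31 type I interferon genes, 27 had a higher estimate, with a median of 0.63 against -0.06 for all genes. Among lower genes the lowest p belonged to Gm12328, Myl6, Hist1h2al, Gm29216 and Gm44389.

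In MET against Relapse-free lungs, 6 genes were called, 2 higher and 4 lower (0.389% of 1543 by edgeR, 107 at an unadjusted p below 0.05). Ccl3 rose from 0 to 35.4 CPM in Relapse-free lungs to 29.7 to 860 CPM in MET (log2 fold change 3.62, SE 0.69, adjusted p = 7.0e-04 by edgeR). Cxcl10, a chemokine induced by interferons that attracts activated T cells, rose (3.72, SE 0.92, adjusted p = 0.0326 by edgeR), although 3 of 6 MET sums held none of it and the other 3 held 37.7, 375 and 514 CPM. Ccl5, a chemokine made by T and NK cells, fell by 2.55 on the log2 scale (adjusted p = 0.0326 by edgeR), from 118.5 to 1425 CPM in Relapse-free lungs to 32.0 to 264 CPM in MET. Markers of those lymphocytes moved with Ccl5. The summed level of the 7 NK cell markers was 143 to 1025 CPM in Relapse-free sums and 0 to 320 CPM in MET sums, and that of the 10 T cell markers 54.3 to 790 and 26.8 to 208 CPM. Their part in the Ccl5 result was not tested.

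The other 3 lower genes were Gm10837, Gm12328 and Gm44389. Gm10837 had no UMI in any MET sum. Its Relapse-free mean was 39.4 times the level that 3 UMIs over the MET group would give, a figure without the spread between mice. The levels of these genes moved with the sequencing batch. Gm10837 was at 194 to 764 CPM in all 13 sums of batches SB96 to SB112 and at 0 to 72.7 CPM in the 16 sums of SB118 to SB132. Gm12328 was at 401 to 1964 CPM in the former and 0 to 699 CPM in the latter, and Gm44389 at 187 to 971.5 and 0 to 228 CPM, so that both overlapped. In Distal normal tissue the one SB124 sum held 699 CPM of Gm12328, above all 4 SB112 sums. Normal and Pre-MET sums came from the earlier batches only and MET sums from the later ones only. Both Gm12328 (chr11:73771924-73772120) and Gm44389 (chr6:60461933-60462114) are processed pseudogenes in the GENCODE annotation of mm10. Reads that align to other copies as well were left out, and the values of both are uncertain for that reason. With batch as a term none of the 6 genes was called, and Ccl4 was the 1 call. The estimates of Ccl3 (3.48, adjusted p = 0.0947 by edgeR) and Cxcl10 (3.25, adjusted p = 0.528 by edgeR) then stayed close to those without the term, and that of Ccl5 was -0.11 (adjusted p = 0.999 by edgeR). Cxcl10 was also not called with no filter on low counts (adjusted p = 0.106 by edgeR), with 20 cells per sum (adjusted p = 0.0741 by edgeR) or from cells of 1000 or more UMIs (adjusted p = 0.176 by edgeR), and Ccl5 not with no filter (adjusted p = 0.323 by edgeR) or from those cells (adjusted p = 0.330 by edgeR). DESeq2 called 6 genes, with Ifitm7 in place of Cxcl10. Without the Relapse-free lung of mouse 7 the calls were Gm10837 and Ccl3, and without the MET sum of mouse 31 they were these and Gm12328. Cxcl10 also lost its call without the MET sum of mouse 37 or the Relapse-free lung of mouse 6, 11 or 18, and Ccl5 without the MET sum of mouse 28, 36 or 37 or the Relapse-free lung of mouse 6. By the batch of most of their cells, only SB128 had sums of both groups, and its MET sums of mice 31 and 32 also held SB124 cells. The 1 Relapse-free sum of SB128 held 34.6 CPM of Ccl3, against 160 to 860 CPM in 4 MET sums. Its Ccl5 was at 118.5 CPM, against 32.0 to 264 CPM in those MET sums. There Cxcl10 was at 29.6 CPM against 0 to 514 CPM in MET, Gm10837 at 9.87 against 0 CPM and Gm44389 at 49.4 against 20.98 to 75.5 CPM, while Gm12328, lower in MET over all batches, was at 59.2 against 96.0 to 220 CPM.

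**Figure D4:**
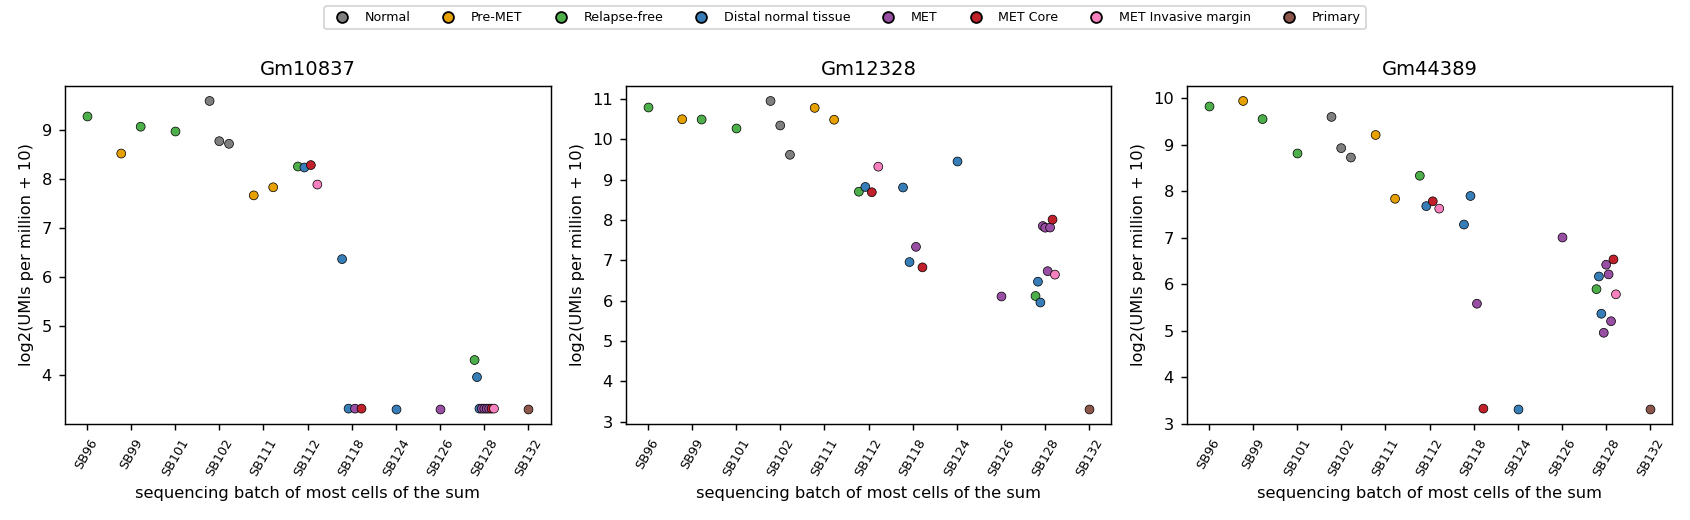
Level of 3 genes in the 29 sums by the sequencing batch of most of their cells, on a log2(CPM + 10) axis, with colors for tissue. Sums of all tissues in the batches from SB96 to SB112 hold more Gm10837 than every sum of the later batches.

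Of 15 inflammatory genes 2 rose and 1 fell, with a median of 1.01 against 0.01 for all genes. Of 31 type I interferon genes 28 had a higher estimate (median 0.74) and none was called, and 10 of 11 tested NF-kB feedback genes had a higher estimate (median 0.54), none called. This comparison and that of Distal normal tissue share the Relapse-free sums. The summed level of the interferon list was lowest in Relapse-free lungs, at a mean of 11040 CPM against 15153 CPM in Normal lungs, the next lowest group.

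The most called genes were found in the metastasis cores, in a comparison that was added after the levels had been seen, although more genes reached an unadjusted p below 0.05 in both comparisons with Normal lungs. MET Core against Distal normal tissue gave 21 called genes, all higher (1.36% of 1543 by edgeR, 145 at an unadjusted p below 0.05). The genes called included chemokines (Ccl3, Ccl4, Cxcl10, Cxcl3), cytokines (Tnf, Il1rn) and interferon-induced genes (Isg20, Rsad2, Ifit1, Ifit2, Ifit3, Ifit3b).

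Ccl3 was at 3248, 9287 and 886 CPM in the cores of mice 17, 28 and 37. In Distal normal tissue it was at 0 to 175 CPM, in the margins at 127 and 405 CPM, and it had no UMI in any Normal or Pre-MET sum. The core values exceeded those of every other sum of the fit (log2 fold change against Distal normal tissue 6.26, SE 0.71, adjusted p = 1.12e-10 by edgeR). Ccl4, a chemokine of like function whose gene lies 13228 bases from Ccl3 on chromosome 11, was at 16550, 24770 and 5275 CPM in the same cores, at 0 to 2036 CPM in Distal normal tissue and at 208 to 2979 CPM in MET (5.07, SE 0.59, adjusted p = 1.24e-10 by edgeR). Cxcl10 was at 2075, 2683 and 1607 CPM in the cores and at 0 to 191 CPM in Distal normal tissue (4.82, SE 0.81, adjusted p = 2.96e-05 by edgeR). The Primary sum, outside the fit, held 3855 CPM of Cxcl10, more than any core, and none of Ccl4. Of the 3 smaller Primary sums, none had a Cxcl10 UMI, where 3 UMIs would be 170 to 780.6 CPM, and that of mouse 9 held 1030 CPM of Ccl4. That of mouse 10 held 3163 CPM of Ccl3 (56 UMIs in 7 cells), more than the core of mouse 37.

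Among interferon-induced genes, Isg20, an antiviral exonuclease, was at 2217, 4643 and 804 CPM in the cores and 0 to 666 CPM in Distal normal tissue (log2 fold change 3.07, adjusted p = 4.69e-04 by edgeR), while the Pre-MET sum of mouse 9 reached 1841 CPM. Isg20 in the Normal sum of mouse 1 and the margin of mouse 36, at 873 and 854 CPM, also exceeded the core of mouse 37. Rsad2, which makes an antiviral nucleotide, was at 2828, 4437 and 1092 CPM against 175 to 928 CPM (2.38, adjusted p = 0.00173 by edgeR). The MET sums of mice 24 and 28, at 1660 and 1209 CPM, and the margin of mouse 36, at 1394 CPM, exceeded the core of mouse 37. Ifit3 overlapped between the groups, at 3427, 4231 and 804 CPM against 146 to 1465 CPM (2.44, adjusted p = 0.0114 by edgeR), and so did Ifit3b, Ifit1, Ifit2, Gm6977 and Cd14 among the called genes. Reads that align both to Ifit3 and to its close copy Ifit3b were left out, and both values are uncertain for that reason. Tnf was at 222, 413 and 1257 CPM in the cores and 0 to 187 CPM in Distal normal tissue (3.09, adjusted p = 0.0277 by edgeR). Il1rn was at 2001, 1961 and 1442 CPM, above the 114 to 1229 CPM of Distal normal tissue (1.77, adjusted p = 0.0409 by edgeR). In the MET sums of mice 36 and 37 Il1rn was at 1792 and 1474 CPM, above the core of mouse 37. Mouse 37 had the lowest core value for Ccl3, Ccl4, Cxcl10, Isg20, Rsad2, Ifit3 and Il1rn, and the highest for Tnf.

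The remaining called genes had other roles. Nfkbia (log2 fold change 1.50), Jun (3.07), a subunit of the AP-1 factor, Cd14 (1.43), a co-receptor for bacterial lipopolysaccharide, Cdkn1a (2.70), an inhibitor of the cell cycle, Hilpda (4.80), a hypoxia-induced lipid droplet protein that was at 154, 2064 and 165 CPM in the cores of mice 17, 28 and 37, Fth1 (1.21), the heavy chain of ferritin, Pnp (3.45), Rab7 (2.12) and Gm6977 (1.72) rose. Some were as high outside the cores. Fth1 was at 20340 CPM in the MET sum of mouse 37, above every core. Cdkn1a was at 2199 CPM in the Pre-MET sum of mouse 9, above the cores of mice 17 and 37. By list, 6 of 15 inflammatory genes rose (median 2.07), 6 of 31 type I interferon genes (28 with a higher estimate, median 1.26), 1 of 9 tumor-associated genes (8 higher, median 1.68) and 1 of 14 glycolysis and hypoxia genes (median 0.18). Of 11 NF-kB feedback genes 1 rose and 6 had a lower estimate (median -0.10), and of 11 secondary and tertiary granule genes 9 had a lower estimate (median -0.26) and none was called. The median of all genes was -0.04. Ptgs2 itself did not pass the test (0.27, SE 0.45), nor did S100a8 (0.08) or S100a9 (0.07), and none of the 4 tested prostaglandin and leukotriene genes was called (median -0.03).

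**Figure D5:**
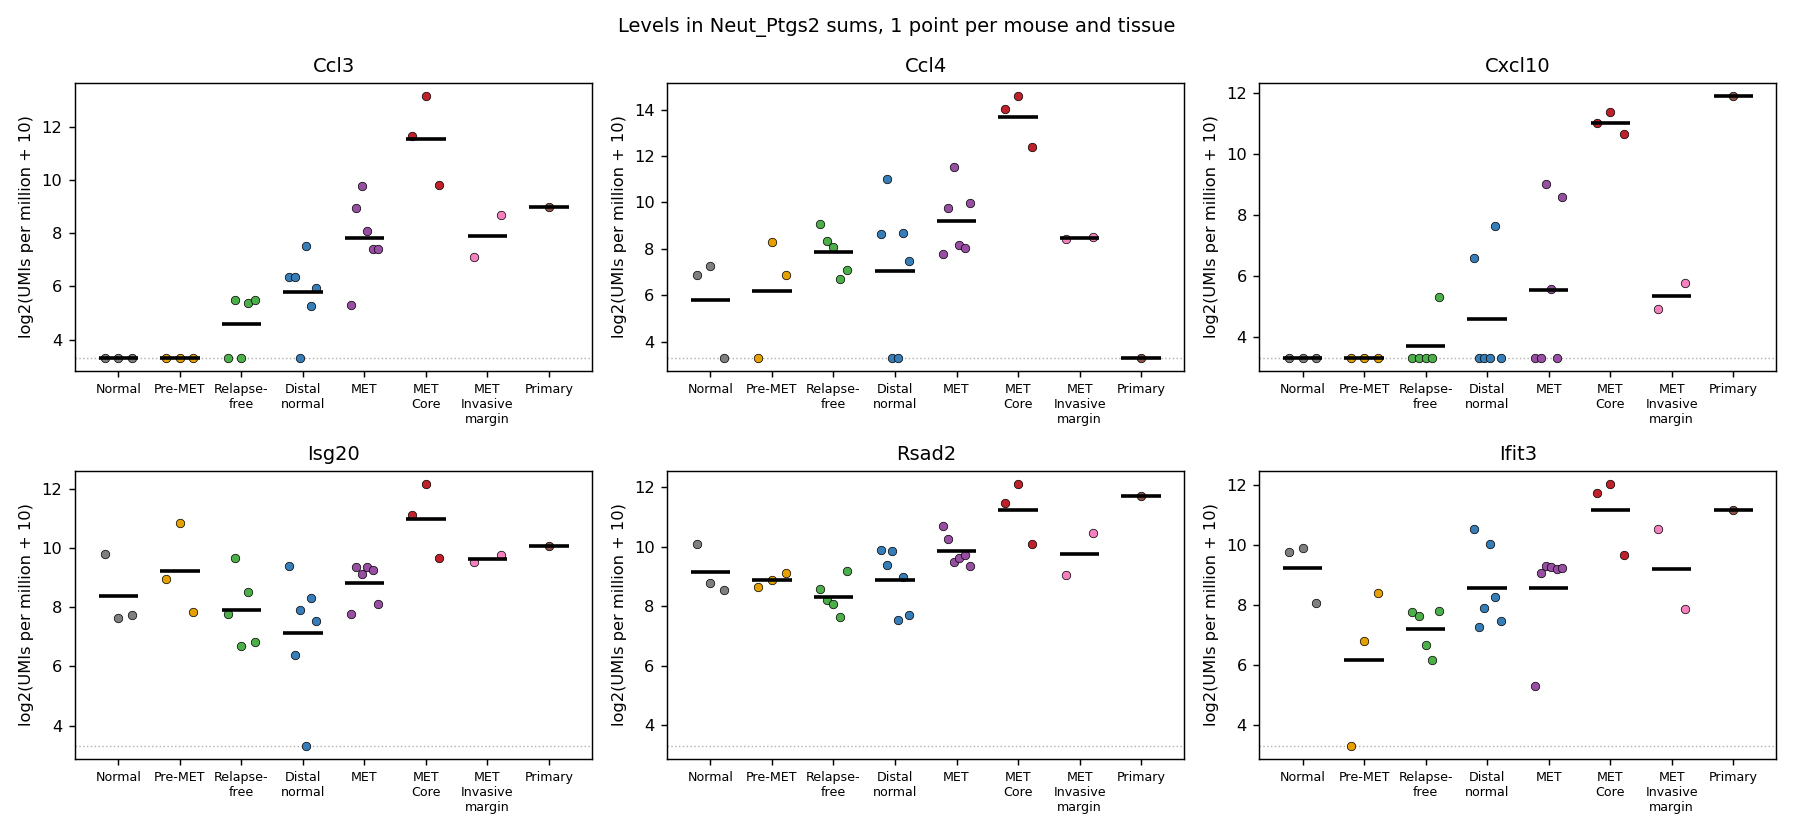
Level of 6 genes in Neut_Ptgs2 cells, on a log2(CPM + 10) axis, with 1 point per mouse and tissue and a bar at the group mean. The 3 MET Core sums hold more Ccl3 and Ccl4 than every other sum plotted, and more Cxcl10 than every other lung sum. The dotted line marks a level of 0.

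The same UMIs were also counted as shares of cells, for genes already called, so that the shares are a description and no separate result. All cells of the groups were pooled, while the sums used held 155 core and 360 Distal normal tissue cells. After thinning to 500 UMIs, Ccl4 was found in 43.9% of 180 core cells (Wilson interval 36.8 to 51.2) and 5.82% of 378 Distal normal tissue cells (3.88 to 8.66), at median depths of 1114 and 1059 UMIs. In B cells of the same cores it was found in 9.09% (3 of 33), but activated B cells can make Ccl3 and Ccl4 themselves and are no clean measure of free RNA. Ccl3 was found in 24.4% against 1.85% (B cells of the cores 3.03%), Cxcl10 in 15.0% against 1.59% (B cells 3.03%), and Rsad2 in 30.0% against 13.5% (0 of 33 B cells, Wilson upper limit 10.4%). Mouse 17 alone gave 110 of the 180 core cells, and the intervals cover counting error only. Cells of 1 sample are not replicates, and these shares carry no test.

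Another label moved with these genes. Neut_PMN-MDSC cells, in which Ccl3 and Ccl4 averaged 10217 and 25982 CPM over the 5 samples with both labels, were 13.3%, 31.6% and 25.5% of the neutrophils in the cores of mice 17, 28 and 37, and 0% in all 6 Distal normal tissue samples. S100a8, a marker of the label, was at 61250 ± 20090 CPM in the core Neut_Ptgs2 sums. It was at 11818 CPM in Neut_PMN-MDSC cells of the 5 samples with both labels, which were not all cores. The labels were made by clustering these cells, so that this difference describes the labels and is no test. The part of cells near the border of the labels, or of free RNA from Neut_PMN-MDSC cells, was not tested. The summed level of 12 monocyte and macrophage markers was 1161, 0 and 1133 CPM in the cores of mice 17, 28 and 37 and 163 to 912 CPM in Distal normal tissue. The cores of mice 17 and 37 were above every Distal normal tissue sum in these markers, and that of mouse 28 was a sum of 12 cells and 9691 UMIs. The part of monocytes and macrophages in the core result was not tested.

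With the mouse as a block (mice 17, 28 and 37), 18 of 952 genes were called, 16 of them shared with the 21. With sequencing batch as a term 18 genes were called as well. The count fell to 8 without the core of mouse 28 (Ccl4, Ccl3, Cxcl10, Cxcl3, Gm6977, Isg20, Jun and Rsad2), so that Hilpda, Tnf, Il1rn, Cdkn1a and the Ifit genes lost their calls, to 9 or 10 without the Distal normal tissue of mouse 34 or 28, respectively, to 11 without the core of mouse 17, and to 3 when only cells of 1000 or more UMIs were summed. With no filter on low counts, or with 20 cells per sum, the 4 calls were Ccl4, Ccl3, Cxcl10 and Cxcl3. DESeq2 called 21 genes, 17 of them shared. Ccl3 and Ccl4 were called in every one of these fits, and Cxcl10 in each but that of DESeq2 (adjusted p = 0.254 by DESeq2).

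Against the MET sums, the cores gave 8 called genes, all higher (0.518% of 1543 by edgeR, 109 unadjusted). These were Ccl4 (log2 fold change 4.01), Ccl3 (3.60), Cxcl10 (3.65), Ifit3, Isg20, Ifit3b, Ifit1 and Gm10837. DESeq2 called Ccl3 and Ccl4. From cells of 1000 or more UMIs, Ccl4 was called, and Ccl3 (2.67, adjusted p = 0.209 by edgeR) and Cxcl10 (3.54, adjusted p = 0.118 by edgeR) were not. Without the core of mouse 17 Ccl3 and Ccl4 were the 2 calls, the count was 4 without the core of mouse 28 or the MET sum of mouse 24 or 31 and 5 without the MET sum of mouse 37, and with the mouse as a block, or sequencing batch as a term, Ccl4, Ccl3 and Cxcl10 were called. Gm10837 followed the sequencing batch, and the core of mouse 17 was the one core sum from a batch up to SB112. This comparison and that against Distal normal tissue share the core sums.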

How the data were processed

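Single CD45+ or photoactivated cells of mouse lung and mammary tumor were sorted into 148 plates and sequenced with unique molecular identifiers (UMIs). The authors demultiplexed with bcl2fastq 2.15.0.4, aligned to mm10 with HISAT, left out reads of several positions, counted UMIs per gene and discarded cells under 500 UMIs. The deposited values are raw UMI counts. The labels are the authors' own, from clustering these cells. Dead cells and doublets were gated out at the sort, and no doublet caller was run here. No well was shared between plates.

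Counts of wells labelled Neut_Ptgs2 were summed per mouse and tissue, with at least 10 cells per sum, and the sums held 5720 to 202584 UMIs. One edgeR 4.0.16 fit (R 4.3.3, quasi-likelihood test, TMM, filterByExpr) was made over 28 sums, with Benjamini-Hochberg adjustment over 1543 genes and a threshold of 0.05. It was tested on simulated data. DESeq2 1.42.0 was an alternative. The 1 Primary sum was not in the fit. The replicate is the mouse and tissue. Mice 17, 28, 36 and 37 gave several of the sums, which the main fit treated as independent, and all core mice were also in the Distal normal tissue group. Shares were compared with exact permutation tests (SciPy 1.17.1), two-sided, by permutations of the samples or by sign flips of paired mice. Label ratios were log2 of CPM plus 10, over genes of at least 100 CPM, with no test. Named genes were called genes with the largest changes and those of the lists, the 5 lowest p in each direction and the 3 markers. The members and all 24 lists were chosen with earlier results of these data known, and the MET Core comparisons were added after levels had been seen. Tissues of 1 mouse are paired by the animal. The deviations of MET sums correlated with those of the mouse's own Distal normal tissue at 0.0807, 0.169 and 0.196 for mice 28, 36 and 37, and those of core sums at 0.218, 0.028 and 0.176 for mice 17, 28 and 37. Fits with the mouse as a block used these mice. Sequencing batch, mouse and tissue are from the deposited well table and labels. Gene positions are from GENCODE release 21 of mm10, and promoters from RefSeq.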

Additional observations from a re-analysis of the deposited data

Results flagged for a closer look

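Single sums stood apart from the rest of their group in 12 of 98 tested sets of values. Chance gives about 1 in 20 for normally distributed values, and the rate for counts with many zeros was not measured. Whether 12 is more than chance gives is therefore not known. Several of the flagged values rest on a few UMIs, given beside them. At that level the depth of the sums and counting error can set a sum apart. Among chemokines, Ccl4 was at 2036 CPM in the Distal normal tissue of mouse 27 and at 2979 CPM in the MET sum of mouse 31, each the highest of 6. Cxcl10 was at 29.6 CPM in the Relapse-free lung of mouse 35 (6 of 202584 UMIs) and at 0 in the other 4. These held 18950 to 84852 UMIs each, so that no one of these zeros can by itself be told from that level. Cxcl3 was at 30.7 CPM in the Distal normal tissue of mouse 17 (6 UMIs).

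Among interferon-induced genes, Ifit2 was at 342 CPM in the Distal normal tissue of mouse 28 (3 UMIs) and at 62.4 CPM in the Relapse-free lung of mouse 18 (4 UMIs), and Ifit3 was lowest in the MET sum of mouse 24, at 29.65 CPM (1 UMI). Il1rn was at 1229 CPM in the Distal normal tissue of mouse 36, and Nfkbia at 4492 CPM in the Relapse-free lung of mouse 35. Hilpda was at 114 CPM in the Distal normal tissue of mouse 28 (1 UMI among 8770), and Tnf was at 0 CPM in the MET sum of mouse 28, of 26470 UMIs. Gm10837 was at 292 CPM in the Distal normal tissue of mouse 17, the one such sum from batch SB112.

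The Primary sum of mouse 38, which entered no comparison of expression, held 3855 CPM of Cxcl10, against 0 in every Normal and Pre-MET sum and in the other 3 Primary sums, of mice 8, 9 and 10, where 3 UMIs would be 780.6, 309 and 170 CPM.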

How the results depend on the processing

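For Pre-MET against Normal, 0 genes were called by DESeq2, 5 with DESeq2's size factors in edgeR, and 0 to 3 with 1 sum left out. For Relapse-free against Normal, 2 genes (Wfdc17, Gm26917) were called with no filter on low counts and 0 to 1 with 1 sum left out. For MET against Distal normal tissue, 1 gene was called with batch as a term, 2 with the mouse as a block and 0 to 1 with 1 sum left out. For Distal normal tissue against Relapse-free, 2 genes (Rn7s2, AC117245.4) were called with no filter and 0 to 1 with 1 sum left out. For MET against Relapse-free, 2 genes (Rab20, Ccl3) were called from cells of 1000 or more UMIs, 1 with batch as a term and 2 to 8 with 1 sum left out. For MET Core against Distal normal tissue, 4 were called with no filter, 3 from cells of 1000 or more UMIs, 4 with 20 cells per sum, 28 with DESeq2's size factors and 8 to 22 with 1 sum left out. For MET Core against MET, 2 were called by DESeq2, 4 with no filter, 2 from cells of 1000 or more UMIs, 4 with 20 cells per sum, 3 with batch as a term, 3 with the mouse as a block and 2 to 11 with 1 sum left out. The cause was not tested in any of these.

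The share of neutrophils in MET against Distal normal tissue turned to -5.78 points when only cells of 1000 or more UMIs were counted (4 mice), and was 6.20 to 11.3 with 1 mouse left out, with an exact p of 0.0469 without mouse 30 or mouse 36. Distal normal tissue against Relapse-free gave -29.3 to -17.8, with a permutation p of 0.00566 without Distal normal tissue 36 and 0.0425 without Relapse-free 11. MET Core against MET Invasive margin was 0.211 as a log2 ratio and -7.84 to 10.6 with 1 mouse left out. Pre-MET against Normal gave -54.8 to -40.4, Relapse-free against Normal -30.1 to -18.7 and Primary against Pre-MET 33.1 to 47.5. Of immune cells, MET against Distal normal tissue was -0.0945 as a log2 ratio and -0.0236 to 1.50 with 1 mouse left out, Pre-MET against Normal -0.318 to 1.09, with -0.277 without Normal 1, Distal normal tissue against Relapse-free -2.79 to 1.00 and Relapse-free against Normal 1.42 to 5.21.

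Small estimates of the markers changed sign. S100a8 did so in Distal normal tissue against Relapse-free with size factors (0.069), no filter (0.034) and batch (0.712), in Relapse-free against Normal with no filter (0.174) and in MET against Relapse-free with batch (0.592). S100a9 did so in Relapse-free against Normal with size factors (-0.053), in Distal normal tissue against Relapse-free from cells of 1000 or more UMIs (-0.0125) and in MET against Relapse-free with batch (0.40). Ptgs2 turned to -0.226 in MET against Distal normal tissue from cells of 1000 or more UMIs, and Gm12328 to 0.407 in Distal normal tissue against Relapse-free with batch. With 1 sum left out, Usp18 gave -3.84 to 3.00 in Relapse-free against Normal, positive only without Normal 2. S100a8 gave -0.0709 to 0.361 in Pre-MET against Normal, -0.339 to 0.138 in Relapse-free against Normal and -0.210 to 0.150 in Distal normal tissue against Relapse-free. S100a9 gave -0.0391 to 0.426 in Relapse-free against Normal and -0.124 to 0.255 in Distal normal tissue against Relapse-free.

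The block changed no other call count by over 1.5 times. No paired analysis was possible for Pre-MET, Normal and Relapse-free because these are different mice. A batch term could not be fitted for comparisons with Normal, and sums of 20 cells or cells of 1000 or more UMIs left too few sums for Pre-MET against Normal. In simulated data, changes of 2 and 3 on the log2 scale were recovered for 7.46% and 30.9% of genes in Pre-MET against Normal and for 47.8% and 81.7% in MET against Distal normal tissue.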
